A study of Mus musculus with 8 samples.

Results

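The genes of Wnt ligands, their receptors and the secreted proteins that antagonize them were followed in mouse embryonic fibroblasts (MEFs), untreated or under carbidopa, CHIR-99021 or LY-364947. Members were taken by gene symbol alone: every Wnt and Frizzled (Fzd) gene, Sfrp1 to Sfrp5, Dkk1 to Dkk4, Wif1, Frzb, Lrp5, Lrp6, Kremen1, Kremen2, Ror1 and Ror2. The rule gave 45 of the 50578 genes in the count table. They are 19 Wnt ligands, 10 Frizzled receptors, 4 co-receptors, 6 antagonists that bind the ligand, 4 Dkk genes and 2 Kremen genes.

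Wnt proteins are lipid-modified ligands that are secreted and bind Frizzled receptors on the cell surface. In the canonical branch, a Wnt joins a Frizzled to Lrp5 or Lrp6, which stops the destruction complex containing the kinase GSK3 and lets β-catenin enter the nucleus, where it works with TCF and LEF factors. Other branches run through Ror1 and Ror2 and act on cell shape and movement without β-catenin. Sfrp proteins, Frzb and Wif1 hold Wnt ligands outside the cell, whereas Dkk1 binds Lrp5 and Lrp6 and can remove them with the Kremen proteins.

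RNA-seq was performed on 4 groups with 2 libraries each. The MEFs came from C57BL/6J mid-gestation embryos, freed of head, tail, limbs and internal organs, were labelled wild type and were used at passage 3 to 5. The control group carried the title MEF. In each treated group 1 compound at 10 µM was added 2 h after plating and kept through medium changes every 3 days. CHIR-99021 is an inhibitor of GSK3, LY-364947 (LY-364747 in the sample labels) one of the TGF-beta receptor, and carbidopa one of the enzyme aromatic-L-amino-acid decarboxylase. The length of treatment for these libraries and any vehicle in the control dishes are not given in the sources used here. Nothing in the labels says that the libraries of a group came from separate cultures or embryos, so p-values measure the spread between these libraries only.

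Library totals ran from 15039566 to 20504338 reads, and 15154 genes (30.0%) held enough reads for a test, 30 members among them. The variance between replicates was 4.31 times that of sampling noise in MEFs (chi-square over its degrees of freedom). It was 9.21, 7.25 and 34.6 times under CHIR-99021, LY-364947 and carbidopa, so the carbidopa pair was the least alike by this measure. The labels call the treated cells mouse hepatic-like cells. The 8 hepatocyte markers summed to at most 1.18 CPM (counts scaled to library size) in every library, and Serpina1a had no read in any library of any group. The 10 fibroblast markers summed to 34743 to 35081 CPM in MEFs and to 8122 to 11705 in the treated libraries. The 10 macrophage markers summed to 1049 to 1091 CPM in MEFs, 309 to 322 under carbidopa, 233 to 236 under LY-364947 and 75.8 to 83.7 under CHIR-99021, and 5 neuronal markers to 87.6 to 91.6 CPM in MEFs and 10.7 to 13.1 in treated libraries. The 6 skeletal muscle markers summed to 30.6 to 31.7 CPM in MEFs and 6.39 to 11.3 in treated libraries, the 9 epithelial markers to 3.29 to 4.23 and 9.81 to 21.5, and the 5 keratinocyte markers to 12.4 to 14.2 under carbidopa and 1.06 to 2.30 in the other groups. In bulk RNA, fewer cells of a type and less RNA per cell cannot be told apart, and the part of these shifts in the results on Wnt genes was not tested.

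Levels between genes were compared as RPKM, reads scaled by exon length and by library size. In MEFs, Dkk3 stood highest among the members, at 53.1 and 55.9 RPKM in the 2 libraries. Dkk2 followed at 44.2 and 49.5, and then Fzd2, Sfrp1, Fzd7, Wnt5a, Wnt9a and Lrp6, with group means from 20.6 to 33.4 RPKM. The Sfrp1 libraries overlapped the range of Fzd2 and that of Fzd7, so the order of Sfrp1 and these neighbours is not resolved, while the other neighbours in the order did not overlap. In the treated cells the head of the list was Fzd7 and Sfrp1. Kremen1, a Dkk receptor, was the Kremen gene detected, at 10.1 and 9.84 RPKM in MEFs, and Lrp6 was the highest co-receptor at 19.7 and 21.5.

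**Figure D1:**
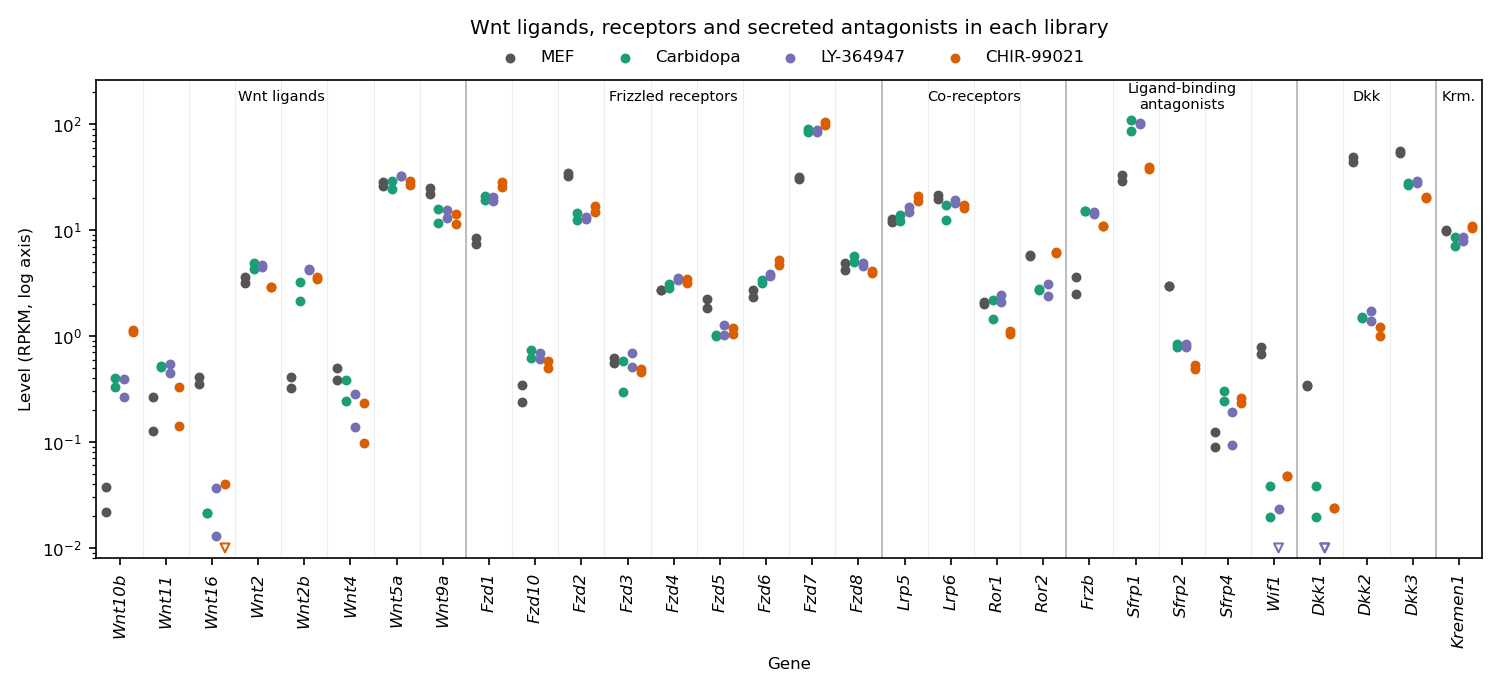
Level of the 30 tested members in each of the 8 libraries, as RPKM on a log axis, ordered by role. Each point is 1 library, colours mark the groups, and open triangles at the lower edge mark libraries with 0 reads. The MEF points of Dkk2 lie at 44.2 and 49.5 RPKM and the treated points between 1.01 and 1.73 RPKM, while the Fzd7 and Sfrp1 points of carbidopa and LY-364947 lie between 84.4 and 109 RPKM.

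At an adjusted p under 0.05 in edgeR's quasi-likelihood test, 22 of the 30 tested members differed between carbidopa-treated cells and MEFs, 10 higher and 12 lower, where 37.7% of all 15154 genes were called (18% higher and 19.7% lower). With LY-364947, 9 members were higher and 10 lower than in MEFs, against a background of 31% (13.7% higher and 17.2% lower). With CHIR-99021, 7 were higher and 10 lower, against 38.8% (18.7% higher and 20.1% lower). Members passed a filter on reads before they could be tested, and 3 of them (Wif1, Dkk1 and Wnt16) passed through MEFs alone, so they had to differ. Wnt10b passed through the treated libraries alone, which built in its difference from MEFs as well, and the counts of members called are not given as support for a change in the list. Sfrp4 passed through the carbidopa and CHIR-99021 libraries, with both MEF libraries under the limit of the filter. Its difference from MEFs was partly built in too. The median of the absolute log2 fold change over the tested members was 1.14, 1.07 and 0.931 for carbidopa, LY-364947 and CHIR-99021, beside 0.396, 0.334 and 0.404 over all genes. These medians include Wif1, Dkk1, Wnt16, Wnt10b and Sfrp4 and are likewise not given as support for a change in the list. The 3 comparisons share the MEF libraries. The 17 calls for CHIR-99021 held whichever library was left out, whereas 7 calls for carbidopa and 5 for LY-364947 were lost without at least 1 library and are marked below.

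**Figure D2:**
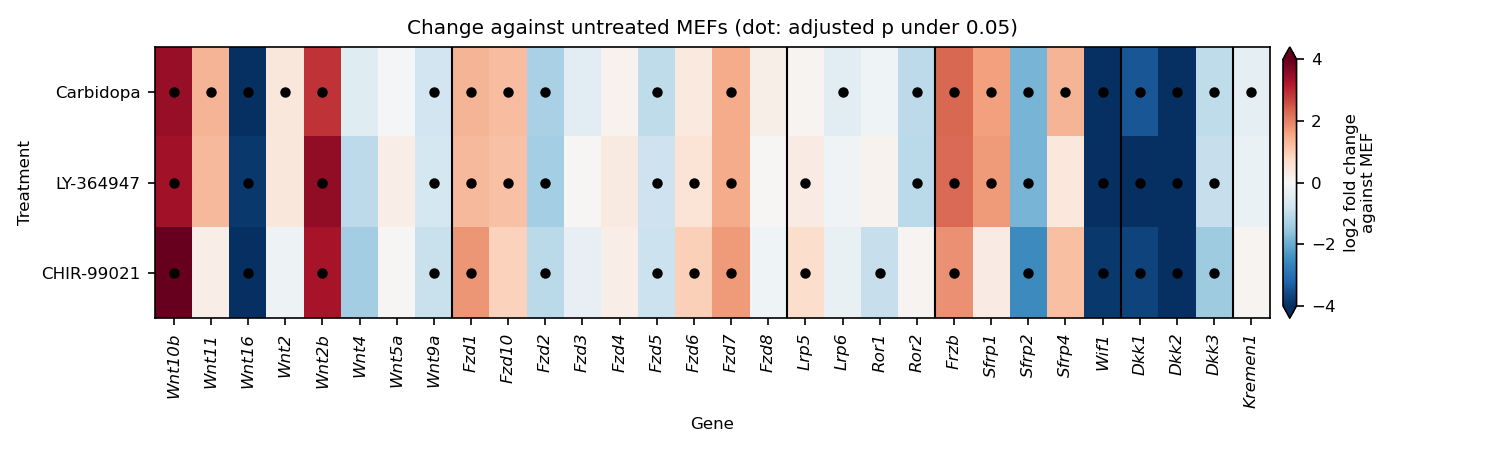
Log2 fold change of each tested member against MEFs in the 3 treatments, in colour from blue (lower) to red (higher) and capped at 4 on both sides. Dots mark an adjusted p under 0.05, and vertical lines part the roles. Wnt10b, Wnt2b and Frzb are red and Dkk2 is blue in all 3 rows, while Sfrp1 and Ror2 are coloured under carbidopa and LY-364947 and pale under CHIR-99021. Fitted values of Wnt16, Wif1 and Dkk1 rest on 0 to 3 reads in each treated library and are no measure of size.

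Promoter sequences are shown for Dkk2, the steepest fall in a well expressed member, for Wnt10b, the steepest rise under CHIR-99021, and for Fzd7 and Fzd1, the receptor pair that rose together. They are from RefSeq (GRCm38.p6, the build also called mm10). Each run gives the 250 bases before the RefSeq start, 5′ to 3′ on the gene's strand. Capitals mark matches to CTTTGAT or CTTTGTT on either strand, letters bound by TCF and LEF factors.
Dkk2, chr3:132085042-132085291, plus strand: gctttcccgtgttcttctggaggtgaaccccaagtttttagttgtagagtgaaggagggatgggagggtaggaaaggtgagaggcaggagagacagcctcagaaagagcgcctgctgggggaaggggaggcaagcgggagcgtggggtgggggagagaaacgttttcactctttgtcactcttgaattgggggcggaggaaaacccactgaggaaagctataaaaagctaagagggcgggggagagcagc
Fzd7, chr1:59481897-59482146, plus strand: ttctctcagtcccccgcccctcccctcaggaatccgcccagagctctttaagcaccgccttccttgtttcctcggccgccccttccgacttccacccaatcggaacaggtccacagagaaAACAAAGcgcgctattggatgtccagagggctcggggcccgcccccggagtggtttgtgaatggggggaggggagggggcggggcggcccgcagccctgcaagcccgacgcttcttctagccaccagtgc
Fzd1, chr5:4758217-4758466, minus strand: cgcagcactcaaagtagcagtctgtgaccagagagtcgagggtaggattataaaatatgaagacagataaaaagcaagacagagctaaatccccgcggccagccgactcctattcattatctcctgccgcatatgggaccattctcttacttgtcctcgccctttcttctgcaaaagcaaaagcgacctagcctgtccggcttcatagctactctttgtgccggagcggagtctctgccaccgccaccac
Wnt10b, chr15:98778151-98778400, minus strand: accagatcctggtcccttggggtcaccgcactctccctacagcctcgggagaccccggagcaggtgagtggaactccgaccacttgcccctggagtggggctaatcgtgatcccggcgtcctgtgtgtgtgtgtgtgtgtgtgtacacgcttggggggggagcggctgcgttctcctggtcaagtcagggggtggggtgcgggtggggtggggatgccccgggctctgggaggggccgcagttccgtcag

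RefSeq windows of 300 bases (250 before the start and 50 after it) were matched for 30 of the 45 members, with 33 start sites. CTTTGAT was present in 2 of the 33 (Wnt11 and Wnt5b), and 3.73% of all 32851 promoter windows held it. CTTTGTT was present in 3 (Fzd7, Dkk1 and Wnt3), and 5.85% of all windows held it. In Fzd7 the match reads AACAAAG on the printed strand, 130 bases before the start, and in Wnt11 the match lies 51 bases before the start. The motifs differ in 1 base and do not overlap in these windows. The other 3 printed runs hold neither run of letters in this window.

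Wnt5a and Wnt9a made up most of the ligand RNA. Wnt5a, best known for signalling without β-catenin, stood at 26.2 and 28.4 RPKM in MEFs, 24.2 and 29.0 under carbidopa, 32.7 and 32.5 under LY-364947 and 26.8 and 29.0 under CHIR-99021. The carbidopa and CHIR-99021 libraries spanned or overlapped the MEF range. The fitted differences from MEFs were -0.04 ± 0.11, 0.26 ± 0.11 and 0.03 ± 0.11 (log2 fold change ± SE) in the order carbidopa, LY-364947, CHIR-99021, the order used throughout, and none passed the test (edgeR adjusted p = 0.822, 0.112 and 0.849), although that of LY-364947 did when it was fitted with MEFs alone (0.00614). Wnt9a stood at 24.9 and 22.04 RPKM in MEFs and between 11.3 and 15.9 RPKM in the 6 treated libraries, all below both MEF libraries. It was lower, at -0.76 ± 0.17, -0.71 ± 0.17 and -0.88 ± 0.17 on the log2 scale (edgeR adjusted p = 0.00537, 0.00854 and 0.0022). The call for carbidopa was lost without MEF 1 (adjusted p = 0.0517) and that for LY-364947 without MEF 1 or LY-364947 1 (0.0754 and 0.0829).

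Wnt2b and Wnt10b, ligands that can act through β-catenin, were scarce in MEFs and higher with each compound. Wnt2b held 23 and 21 reads in MEFs, 190 and 295 under carbidopa, 313 and 338 under LY-364947 and 266 and 251 under CHIR-99021. Every treated library was above both MEF libraries, and its level rose from 0.407 and 0.322 RPKM in MEFs to between 2.13 and 4.28 RPKM. The log2 fold changes were 2.89 ± 0.26, 3.54 ± 0.26 and 3.29 ± 0.26 (edgeR adjusted p = 1.29e-05, 2.71e-06 and 4.84e-06). The carbidopa libraries differed by more from each other than those of any other group did.

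Wnt10b held 1 and 2 reads in MEFs, 29 and 24 under carbidopa, 16 and 25 under LY-364947 and 67 and 64 under CHIR-99021. Pooled reads per library size were 12.0 times those in MEFs under carbidopa (exact 95% interval 3.88 to 59.9), 10.8 times under LY-364947 (3.45 to 54.6) and 36.5 times under CHIR-99021 (12.2 to 179), intervals that cover counting error only. The edgeR adjusted p was 0.000705, 0.00119 and 1.86e-05, for a gene that the filter kept through its treated libraries. At 1.09 and 1.13 RPKM, the level under CHIR-99021 was still far under that of Wnt5a. The gene lies at chr15:98770712-98778150 of mm10, 11.7 kb from Wnt1, a neighbour that had at most 1 read in any library.

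Wnt16, which the filter kept through MEFs alone, went the other way, with 24 and 24 reads in MEFs and 0 to 3 reads in each treated library. Its pooled reads were 17.7 times as high in MEFs as under carbidopa (exact 95% interval 6.48 to 67.6), 15.2 times as under LY-364947 (5.55 to 57.9) and 19.1 times as under CHIR-99021 (6.16 to 96.0). Wnt2, beside Wnt5a and Wnt9a one of the better expressed ligands, was 109 and 110 reads in MEFs and 237 and 209 under carbidopa, a log2 fold change of 0.46 ± 0.16 (edgeR adjusted p = 0.044) that was lost without any 1 of 7 libraries, carbidopa 2 being the exception (adjusted p from 0.0648 to 0.25). LY-364947 gave 0.46 ± 0.16 (0.0555) for Wnt2, with 181 and 200 reads, and CHIR-99021 -0.21 ± 0.17 (0.349). Wnt11 was at 7 and 17 reads in MEFs and 45 and 46 under carbidopa, 1.37 ± 0.45 (adjusted p = 0.0359), a call lost without MEF 1, carbidopa 1 or either LY-364947 library (0.0524 to 0.218). LY-364947 gave 1.31 ± 0.46 (0.0522) for Wnt11, with 33 and 42 reads, and CHIR-99021 0.25 ± 0.50 (0.723). Wnt4 held 28 and 25 reads in MEFs and 7 to 34 in treated libraries, and passed the test in none of the 3 comparisons.

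The other 11 ligands were too scarce to test. Wnt3a and Wnt9b had 0 reads in every library, where counting error would allow up to 3 reads for each gene over all libraries together. Wnt5b reached 18 reads, in a carbidopa library, and Wnt6 held 4 and 6 reads in MEFs and 0 to 2 in treated libraries. The remaining 7 (Wnt1, Wnt3, Wnt7a, Wnt7b, Wnt8a, Wnt8b and Wnt10a) had at most 5 reads in any library, so a change in them was not detectable at this depth. The summed ligand level was 56.4 and 55.2 RPKM in MEFs, 49.0 and 49.7 under carbidopa, 55.7 and 58.5 under LY-364947 and 46.6 and 51.1 under CHIR-99021. The share of Wnt9a in it was 44.1% and 39.9% in MEFs and 23.4% to 32.6% in treated libraries, and that of Wnt2b 0.721% and 0.583% in MEFs and 4.34% to 7.82%.

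**Figure D3:**
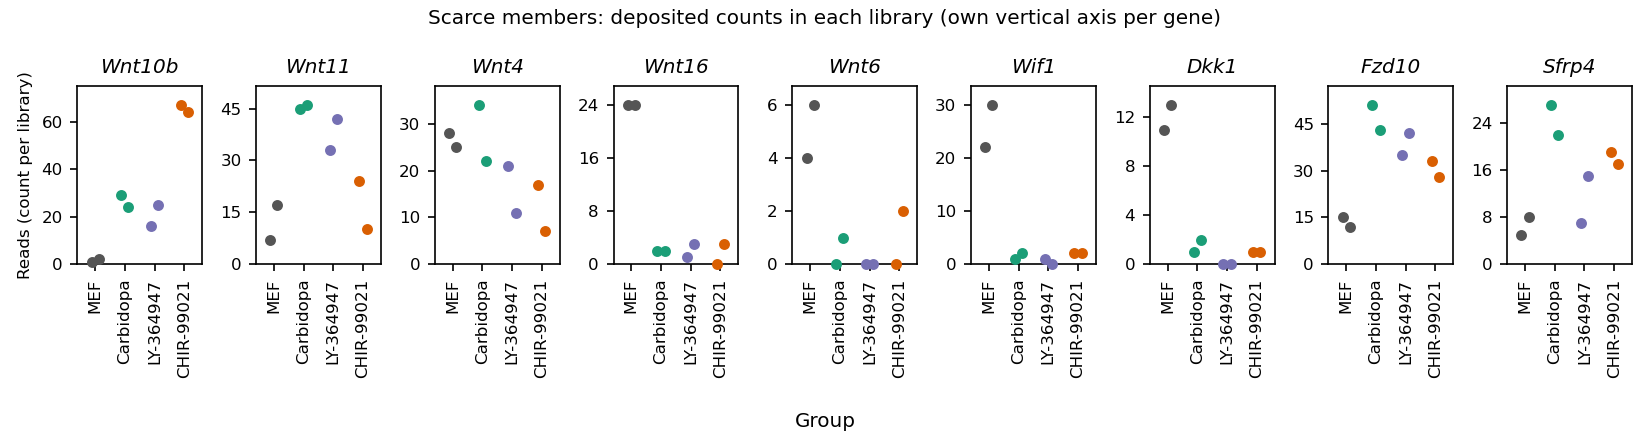
Deposited read counts of 9 scarce members in each library, with a vertical axis of its own from 0 for each gene. Each point is 1 library. Wnt10b is highest in the CHIR-99021 libraries (67 and 64 reads), while Wnt16, Wif1 and Dkk1 are above 3 reads in the MEF libraries alone.

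Among the Frizzled receptors, which bind Wnt ligands directly, Fzd2 and Fzd7 parted. Fzd7 rose with each compound and became the leading receptor, while Fzd2 fell. Fzd7 (chr1:59482424-59486955) held 1837 and 2228 reads in MEFs, 8139 and 8771 under carbidopa, 7207 and 7187 under LY-364947 and 7689 and 8263 under CHIR-99021. All treated libraries lay far above the MEF libraries, and the log2 fold changes were 1.5 ± 0.10, 1.49 ± 0.10 and 1.72 ± 0.10 (edgeR adjusted p = 1.5e-06, 1.62e-06 and 5.49e-07). Fzd2 (chr11:102604396-102608058) held 1589 and 1969 reads in MEFs, 1138 and 984 under carbidopa, 828 and 922 under LY-364947 and 1069 and 948 under CHIR-99021. Its groups did not overlap with MEFs, and it was lower, at -1.30 ± 0.11, -1.36 ± 0.11 and -1.07 ± 0.11 (adjusted p = 1.09e-05, 8.59e-06 and 4.23e-05).

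Fzd1, of the same subfamily as Fzd2 and Fzd7, moved with Fzd7. Its counts were 420 and 552 in MEFs, 1737 and 1890 under carbidopa, 1535 and 1476 under LY-364947 and 1862 and 2083 under CHIR-99021. It was higher by 1.34 ± 0.12, 1.30 ± 0.12 and 1.77 ± 0.12 on the log2 scale (edgeR adjusted p = 1.05e-05, 1.37e-05 and 1.42e-06). Fzd5 was lower, at -1.0 ± 0.18, -0.83 ± 0.18 and -0.85 ± 0.18 (adjusted p = 0.00149, 0.00507 and 0.00378), from 208 and 196 reads in MEFs to 125 to 165 in treated libraries, and its call for LY-364947 was lost without MEF 1 or LY-364947 1 (0.0608 and 0.0577). Fzd6 held 152 and 205 reads in MEFs, 314 and 346 under LY-364947 and 391 and 430 under CHIR-99021, higher by 0.55 ± 0.14 and 0.95 ± 0.14 (adjusted p = 0.011 and 0.000349). With carbidopa Fzd6 stood at 328 and 353 reads, 0.38 ± 0.14, and just missed the threshold (0.0521). Without MEF 1 or LY-364947 2, the Fzd6 call for LY-364947 was lost (0.11 and 0.0765).

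Fzd10 was scarce, with 15 and 12 reads in MEFs, 51 and 43 under carbidopa, 35 and 42 under LY-364947 and 33 and 28 under CHIR-99021. It was called for carbidopa (1.23 ± 0.33, edgeR adjusted p = 0.0146) and LY-364947 (1.16 ± 0.33, 0.0231) and not for CHIR-99021 (0.91 ± 0.34, 0.058). The first was lost without MEF 2 or carbidopa 1 (0.127 and 0.0512) and the second without MEF 2 or either LY-364947 library (0.175, 0.0613 and 0.118). Fzd3, Fzd4 and Fzd8 passed in no comparison with MEFs, with log2 fold changes between -0.41 and 0.35. Fzd9 had at most 4 reads in a library.

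The make-up of the Frizzled RNA shifted between 3 genes of 1 subfamily, Fzd1, Fzd2 and Fzd7. Summed over the family, the level was 82.3 and 87.9 RPKM in MEFs and 131 to 164 RPKM in the treated libraries. Fzd2 made up 39.1% and 39.4% of the sum in MEFs and 9.11% to 11.04% in treated libraries. Fzd7 made up 36.6% and 36.1% in MEFs and 63.3% to 65.6% in treated libraries. Fzd1 went from 9.03% and 9.65% to between 14.3% and 17.5%.

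**Figure D4:**
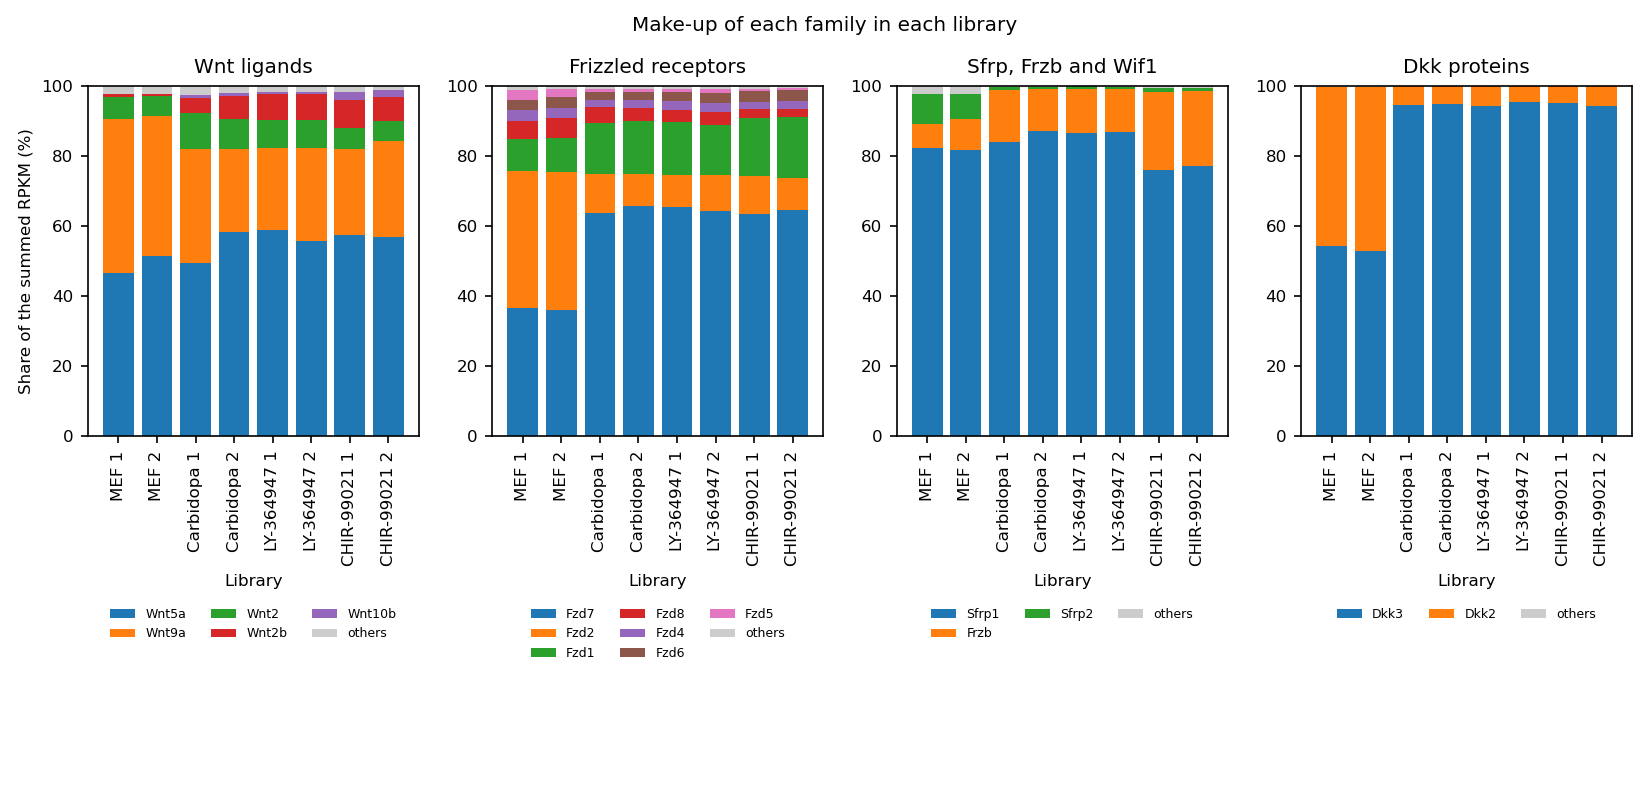
Share of each gene in the summed RPKM of its family, in percent, for each of the 8 libraries. Stacked colours are genes, and grey holds genes whose group means stay under 2%. The Fzd2 band shrinks from 39.3% of the Frizzled level in MEFs to between 9.75% and 10.1% with each compound while the Fzd7 band widens, and Dkk3 is left with nearly all of the Dkk level.

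The co-receptors changed less, and not all one way. Lrp6, which transmits the canonical signal with a Frizzled, stood at 269 and 293 CPM in MEFs and 172 and 235 CPM under carbidopa. That was a log2 fold change of -0.47 ± 0.14 (edgeR adjusted p = 0.0253), a call lost without MEF 1 or MEF 2 (0.0719 and 0.165), and the differences under LY-364947 and CHIR-99021 did not pass (-0.14 ± 0.14 and -0.30 ± 0.14, adjusted p = 0.488 and 0.12). Lrp5, its close relative, held 1657 and 1817 reads (123 and 117 CPM) in MEFs and 2551 and 2938 (120 and 137 CPM) under carbidopa. It held 2552 and 3013 reads (143 and 160 CPM) under LY-364947 and 3569 and 3152 (205 and 183 CPM) under CHIR-99021. It was higher under CHIR-99021 by 0.69 ± 0.11 (adjusted p = 0.000848) and under LY-364947 by 0.34 ± 0.11 (0.0447). The LY-364947 call was lost without any 1 of 6 libraries (0.0604 to 0.28), with RLE size factors (0.0607) and in DESeq2 (0.061), and carbidopa gave 0.10 ± 0.11 (0.525).

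Ror2, the receptor tyrosine kinase that serves Wnt5a, held 331 and 376 reads in MEFs, 252 and 249 under carbidopa, 182 and 245 under LY-364947 and 449 and 458 under CHIR-99021. In CPM, the MEF and CHIR-99021 libraries lay together at 24.2 to 26.6 and the other 4 at 10.2 to 13.0. It was lower under carbidopa, at -1.06 ± 0.14 and under LY-364947, at -1.07 ± 0.14 (edgeR adjusted p = 0.00021 and 0.000214), and CHIR-99021 gave 0.10 ± 0.13 (0.588). Ror1 went otherwise: its CPM were 12.0 and 11.5 in MEFs and 6.39 and 6.09 under CHIR-99021, a log2 fold change of -0.91 ± 0.21 (adjusted p = 0.00681). With carbidopa (8.28 and 12.6 CPM) and LY-364947 (14.1 and 12.0 CPM) Ror1 was not called (adjusted p = 0.539 and 0.622).

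The antagonists that bind Wnt ligands held both large rises and large falls. Frzb, also known as Sfrp3, held 109 and 180 reads in MEFs, 1049 and 1047 under carbidopa, 863 and 866 under LY-364947 and 615 and 612 under CHIR-99021. The MEF pair differed by more than any treated pair, and every treated library was above it. The log2 fold changes were 2.31 ± 0.15, 2.25 ± 0.15 and 1.84 ± 0.15 (edgeR adjusted p = 1.38e-06, 1.7e-06 and 7.42e-06).

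Sfrp1 (chr8:23411502-23449632), the most abundant of these antagonists, held 1696 and 2256 reads in MEFs, 8025 and 10221 under carbidopa, 7998 and 8284 under LY-364947 and 2859 and 2999 under CHIR-99021. Its level was 28.8 and 33.3 RPKM in MEFs, between 86.3 and 109 RPKM under carbidopa and LY-364947, and 37.6 and 39.8 RPKM under CHIR-99021. The log2 fold change was 1.65 ± 0.13 under carbidopa and 1.71 ± 0.13 under LY-364947 (edgeR adjusted p = 4.74e-06 and 3.87e-06). With CHIR-99021 it was 0.32 ± 0.13 (adjusted p = 0.072), and this passed without a filter on low counts (0.0268) and with the compared groups fitted alone (0.0135).

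Sfrp2, at 87 and 99 reads in MEFs, was at 36 and 39 under carbidopa, 32 and 32 under LY-364947 and 20 and 18 under CHIR-99021. It was lower, at -1.87 ± 0.23, -1.87 ± 0.23 and -2.54 ± 0.25 on the log2 scale (edgeR adjusted p = 0.000113, 0.000129 and 2.25e-05). Wif1, the Wnt inhibitory factor, was kept by the filter through MEFs alone. It held 22 and 30 reads in MEFs and 0 to 2 in each treated library. Pooled reads were 25.6 times (exact 95% interval 8.28 to 128), 65.7 times (11.3 to 2646) and 15.5 times (5.72 to 59.2) as high in MEFs as under carbidopa, LY-364947 and CHIR-99021. Sfrp4 was called under carbidopa alone, at 27 and 22 reads against 5 and 8 (1.35 ± 0.48, adjusted p = 0.0498), and the call was lost without either MEF library, carbidopa 1 or either CHIR-99021 library (0.0699 to 0.212). The filter kept Sfrp4 through treated libraries alone, so its difference from MEFs was partly built in. Sfrp5 had at most 1 read in a library. The summed level of the 6 genes was 35.1 and 40.7 RPKM in MEFs, 103 and 125 under carbidopa, 118 and 116 under LY-364947 and 49.4 and 51.5 under CHIR-99021, most of it Sfrp1.

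Dkk2 and Dkk3 fell with each compound. Dkk1 was lower as well, but the filter kept it through MEFs alone, so its difference was built in. Dkk2 (chr3:132085292-132180304), which binds Lrp5 and Lrp6, held 2206 and 2845 reads in MEFs, 120 and 118 under carbidopa, 114 and 96 under LY-364947 and 65 and 78 under CHIR-99021. In CPM, the MEF libraries stood at 164 and 183 and the treated libraries between 3.74 and 6.39. The log2 fold changes were -4.96 ± 0.15, -4.92 ± 0.15 and -5.39 ± 0.15 (edgeR adjusted p = 5.3e-09, 6.18e-09 and 6.86e-09), the smallest p among the members in each of the 3 comparisons.

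Dkk3, a relative of the family that is not known as a strong Wnt antagonist, fell less. Its counts were 2399 and 2915 in MEFs, 1895 and 2007 under carbidopa, 1685 and 1838 under LY-364947 and 1198 and 1169 under CHIR-99021, and no treated library reached the MEF range. The log2 fold changes were -1.0 ± 0.09, -0.93 ± 0.09 and -1.42 ± 0.09 (edgeR adjusted p = 1.66e-05, 3.06e-05 and 1.43e-06). Dkk1, the classical inhibitor of Lrp5 and Lrp6, held 11 and 13 reads in MEFs, 1 and 2 under carbidopa, 0 and 0 under LY-364947 and 1 and 1 under CHIR-99021. Pooled reads were 11.8 times as high in MEFs as under carbidopa (exact 95% interval 3.58 to 61.2), 14.3 times as under CHIR-99021 (3.56 to 125) and at least 10.1-fold higher than under LY-364947, against a floor of 3 reads over the group. Dkk4 had 0 reads in every library. The summed Dkk level dropped from 97.6 and 106 RPKM in MEFs to 21.4 to 30.5 in treated libraries, and the share of Dkk2 from 45.3% and 46.8% to between 4.52% and 5.78%.

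Kremen1 stood at 78.1 and 76.0 CPM in MEFs, 54.5 and 66.8 under carbidopa, 60.8 and 67.1 under LY-364947 and 81.3 and 84.7 under CHIR-99021. It was lower under carbidopa, at -0.34 ± 0.12 (edgeR adjusted p = 0.0411), a call lost without any 1 of 7 libraries (0.0628 to 0.176), carbidopa 2 being the exception, without a filter on low counts (0.0609) and with the compared groups fitted alone (0.113). The differences for LY-364947 and CHIR-99021 were -0.27 ± 0.12 and 0.11 ± 0.12 (adjusted p = 0.114 and 0.502), and the first passed when fitted with MEFs alone (0.0106). Kremen2 had 0 reads in every library.

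CHIR-99021 was then compared with each of the other compounds. Against carbidopa, 12 of the 30 tested members differed, 6 higher and 6 lower, where 14.7% of all genes were called (6.65% higher and 8.08% lower). Against LY-364947, 7 differed, 3 higher and 4 lower, where 14.1% were called (6.46% higher and 7.69% lower). The 2 comparisons share the CHIR-99021 libraries. Leaving out a library moved these counts: against LY-364947 to 3 without either CHIR-99021 library, to 2 and 4 without LY-364947 1 and 2, and to 14 without either carbidopa library. Against carbidopa the count went to 2 and 4 without CHIR-99021 1 and 2, and to 7 without either LY-364947 library. With only the compared groups in the fit, there were 11 calls against LY-364947 and 4 against carbidopa.

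The largest of these differences lay in Sfrp1, Ror2 and Wnt10b. Sfrp1 was lower under CHIR-99021, at -1.34 ± 0.13 against carbidopa and -1.39 ± 0.13 against LY-364947 on the log2 scale (edgeR adjusted p = 0.000132 and 0.000113). Ror2 was higher by 1.16 ± 0.14 and 1.17 ± 0.14 (0.000479 and 0.000488). For both genes the calls held without any 1 library. Wnt10b was higher by 1.60 ± 0.30 and 1.75 ± 0.31 (0.00598 and 0.00447), calls lost without CHIR-99021 1 (0.0564) and LY-364947 1 (0.0674), respectively.

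Smaller differences passed for several more members. Fzd1 was higher under CHIR-99021 by 0.42 ± 0.11 and 0.47 ± 0.11 (edgeR adjusted p = 0.0297 and 0.0202), and Dkk3 lower, at -0.42 ± 0.09 and -0.49 ± 0.09 (0.0148 and 0.00691). Wnt2 was lower, at -0.67 ± 0.16 in both comparisons (0.0193 and 0.0212), and Ror1 at -0.74 ± 0.21 and -1.06 ± 0.21 (0.0394 and 0.00826). Each of these 8 calls was lost without CHIR-99021 1 and without CHIR-99021 2, with adjusted p from 0.0556 to 0.186. The calls against LY-364947 were also lost without LY-364947 1 and, except for Ror1, without LY-364947 2 (0.0562 to 0.15). Against carbidopa, those of Fzd1 and Ror1 were also lost without either LY-364947 or either MEF library, and that of Ror1 without carbidopa 2 (0.0551 to 0.105). Against carbidopa, Lrp5 (0.60 ± 0.11), Fzd6 (0.57 ± 0.13) and Kremen1 (0.45 ± 0.12) were higher and Frzb (-0.47 ± 0.14) and Fzd8 (-0.41 ± 0.12) lower as well, with adjusted p from 0.00637 to 0.0497. Against LY-364947 those 5 gave 0.35 ± 0.11, 0.40 ± 0.13, 0.38 ± 0.12, -0.41 ± 0.14 and -0.23 ± 0.12 (adjusted p = 0.0621, 0.0714, 0.0593, 0.0704 and 0.242). All 5 carbidopa calls were lost without CHIR-99021 1 (0.0625 to 0.215), and all but that of Lrp5 without CHIR-99021 2 (0.112 to 0.211). Those of Frzb, Kremen1 and Fzd8 were also lost without either LY-364947 library, those of Kremen1 and Fzd8 without either MEF library and that of Fzd8 without carbidopa 1 (0.0504 to 0.0958).

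**Figure D5:**
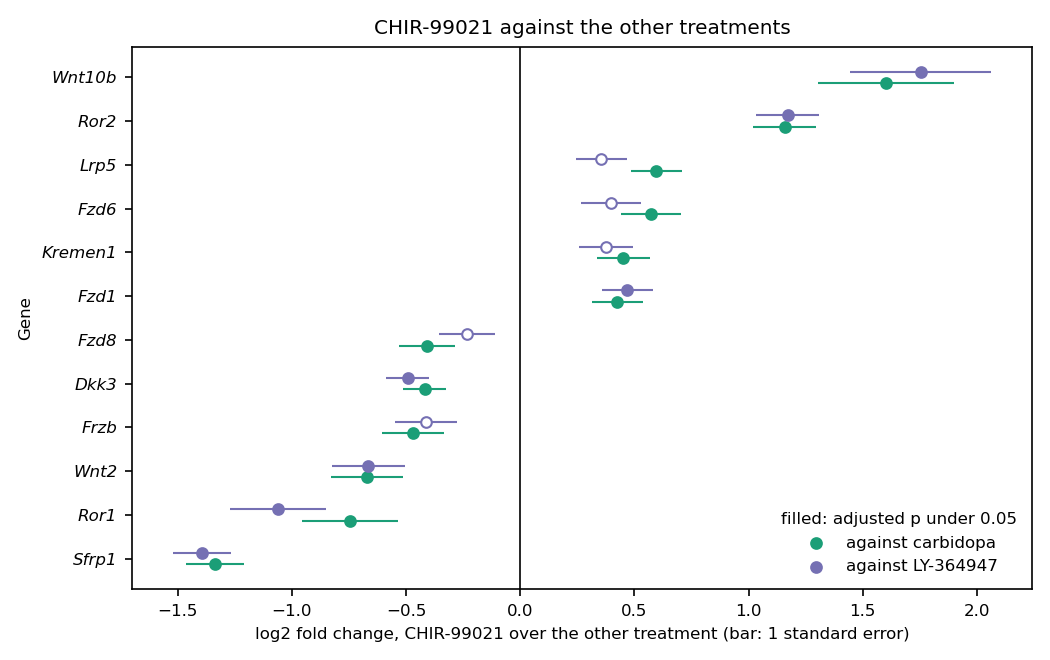
Log2 fold change of CHIR-99021 over carbidopa (green) and over LY-364947 (purple) for the 12 members called in at least 1 of the comparisons, with bars of 1 standard error. Filled points have an adjusted p under 0.05. Wnt10b and Ror2 stand farthest to the right (1.16 to 1.75) and Sfrp1 farthest to the left (-1.34 and -1.39).

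Between LY-364947 and carbidopa, 0 of the 30 tested members were called by edgeR and 0 by DESeq2, where 0.0132% of all genes were called by edgeR. At an unadjusted p under 0.05 there were 3 members by either tool, and 9.03% of all genes by edgeR. The 3 by edgeR were Wnt2b (0.65 ± 0.19), Lrp6 (0.32 ± 0.14) and Wnt5a (0.29 ± 0.11), each higher under LY-364947 and none past the threshold after adjustment (edgeR adjusted p = 0.519 for each). The 95% interval of the log2 difference ran from -0.22 to 0.21 for Fzd7, from -0.31 to 0.40 for Dkk2, from -0.22 to 0.34 for Sfrp1 and from -0.33 to 0.31 for Ror2. Without carbidopa 2, 6 members were called, all higher under LY-364947, and without any other library 0 were called.

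Other genes of the pathway were grouped by role, in lists that overlap. The feedback list shares Lef1 and Tcf7 with the nuclear factors, Lgr5, Rnf43 and Znrf3 with the R-spondin axis, and Notum with ligand removal. Counts of calls against MEFs in these lists stand beside the 37.7%, 31% and 38.8% of all genes called for carbidopa, LY-364947 and CHIR-99021. Unlike for the members, whether calls of the pathway genes held with a library left out is not given. Axin2, a feedback gene often read as a sign of β-catenin activity, held 35 and 27 reads in MEFs, 61 and 60 under carbidopa, 49 and 73 under LY-364947 and 32 and 33 under CHIR-99021. It passed the test in none of the comparisons with MEFs (log2 fold change 0.39 ± 0.29, 0.62 ± 0.29 and -0.20 ± 0.31, edgeR adjusted p = 0.309, 0.134 and 0.648). Of the 10 tested of 12 feedback and target genes, 1 was higher and 4 lower under carbidopa, 1 higher and 3 lower under LY-364947, and 4 higher and 3 lower under CHIR-99021. Beside the share of all genes called, nothing particular to the list is read from these counts or from those of the lists that follow. Lgr5, an R-spondin receptor and target gene, held 5347 and 6550 reads in MEFs and 9 to 18 in each treated library (log2 fold change -9.49 ± 0.23, -9.11 ± 0.23 and -9.02 ± 0.23, adjusted p = 2.42e-09, 2.77e-09 and 4.9e-09). Nkd2, an inhibitor of Dishevelled, fell from 363 and 386 reads to 116 to 174. Myc and Lef1, outside the rule for named genes and chosen after their values were seen, were higher under CHIR-99021 than in MEFs by 0.67 ± 0.12 and 1.67 ± 0.33 (0.00142 and 0.00269). Myc was lower under carbidopa and LY-364947, at -0.70 ± 0.12 and -1.15 ± 0.13 (0.00134 and 5.92e-05), and Lef1 gave -0.13 ± 0.36 and -0.68 ± 0.39 (0.795 and 0.225). Nkd1, a relative of Nkd2 likewise chosen after its values were seen, was lower under CHIR-99021, at -1.39 ± 0.23 (0.000865), and gave -0.58 ± 0.21 and -0.37 ± 0.21 under carbidopa and LY-364947 (0.0511 and 0.217).

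Of the 9 genes of the R-spondin axis, 8 were tested, and 2 were higher and 3 lower in each comparison with MEFs, Lgr4 among the lower at 1323 and 1717 reads in MEFs and 315 to 411 in treated libraries. Of 11 genes for release and removal of the ligand 7 were tested, with 2 higher and 4 lower for carbidopa and for LY-364947 and 1 higher and 4 lower for CHIR-99021. Cthrc1, a secreted protein that favours Ror2 signalling, was lower, at -1.61 ± 0.18, -1.81 ± 0.18 and -1.18 ± 0.18 (edgeR adjusted p = 6.03e-05, 3.13e-05 and 0.000477). Tpbg, an inhibitor of Lrp6, was lower with each compound as well, at -0.44 ± 0.10, -0.30 ± 0.10 and -0.97 ± 0.10 (0.006, 0.0404 and 3.93e-05). So was Trabd2b, a protease that cleaves Wnt proteins, at -2.97 ± 0.40, -2.28 ± 0.38 and -2.45 ± 0.39 (0.000253, 0.00115 and 0.000758).

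Among 12 further Wnt receptors and polarity proteins, 10 were tested, with 4 higher and 4 lower for carbidopa and 4 higher and 3 lower for each of the other compounds. The proteoglycan Gpc3 held 346 and 400 reads in MEFs, 7494 and 6917 under carbidopa, 6176 and 6119 under LY-364947 and 2771 and 2955 under CHIR-99021. Gpc4 was lower with each compound, at -0.64 ± 0.09, -0.43 ± 0.09 and -1.07 ± 0.10 (edgeR adjusted p = 0.000474, 0.0059 and 1.25e-05), and Prickle2 higher, at 0.86 ± 0.15, 1.18 ± 0.15 and 0.44 ± 0.15 (0.00113, 0.000143 and 0.0357). All 13 cytoplasmic transducers were tested, and 3 were higher and 2 lower under carbidopa, 3 higher under LY-364947, and 4 higher and 1 lower under CHIR-99021. Axin1, a scaffold of the destruction complex, was higher by 0.79 ± 0.15, 0.67 ± 0.15 and 1.00 ± 0.15 (0.00202, 0.00582 and 0.000415). Btrc, the ubiquitin ligase subunit that marks β-catenin, was higher by 0.53 ± 0.12, 0.38 ± 0.12 and 0.50 ± 0.12 (0.00712, 0.0404 and 0.00986) and the kinase gene Csnk1e by 0.30 ± 0.10, 0.32 ± 0.10 and 0.37 ± 0.10 (0.0314, 0.0292 and 0.0121).

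All 12 nuclear factors were tested, with 2 higher and 3 lower for carbidopa, 2 higher and 5 lower for LY-364947, and 3 higher and 3 lower for CHIR-99021. Tcf7 held 7 and 8 reads in MEFs, 63 and 50 under carbidopa, 66 and 53 under LY-364947 and 68 and 85 under CHIR-99021 (edgeR adjusted p = 0.000541, 0.000227 and 5.86e-05). Both MEF libraries were under the limit of the filter, which kept Tcf7 through treated libraries alone, so its difference from MEFs was partly built in. Tle3, a co-repressor, was higher by 0.65 ± 0.10, 0.79 ± 0.10 and 0.97 ± 0.10 (0.000793, 0.000229 and 4.79e-05). Bcl9l, a β-catenin co-activator, was lower under carbidopa and LY-364947, at -0.78 ± 0.11 and -0.64 ± 0.11 (0.000251 and 0.001), and gave -0.24 ± 0.10 under CHIR-99021 (0.0996). Tcf7l2 was lower under carbidopa and LY-364947, at -0.81 ± 0.11 and -0.54 ± 0.11 (0.000343 and 0.0047), and gave -0.27 ± 0.11 under CHIR-99021 (0.0879). Under CHIR-99021, 3 nuclear factors were higher than under carbidopa (Tcf7l2, Lef1 and Bcl9l) and 3 higher than under LY-364947 (Tle1, Lef1 and Bcl9l), where 6.65% and 6.46% of all genes were called higher.

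Several members share exons with a gene on the other strand, and the sources used here do not say whether the counting used strand. The shared part was 17.8% of the exon length of Fzd5, 16.1% of Sfrp2, 8.80% of Wnt11, 4.58% of Wnt5a and 3.15% of Fzd6, and the other gene held at most 18 reads over all 8 libraries except for Wnt5a, where it held 412. Among members not tested, Kremen2 shares 9.42% with 9530082P21Rik, which held 1760 reads, and Wnt7b 6.61% with AU022754, which held 0. Reads of such pairs cannot be told apart. Wnt5a held 32025 reads over the same libraries.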

How the data were processed

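RNA was measured in 8 libraries of MEFs. The authors mapped reads with STAR 2.4.2a to mm10 and counted them per gene with featureCounts. They deposited whole-number read counts without normalization, and the tools are partly taken from the submitters' processing notes. The annotation release and strand setting are not given in the sources used here. The methods describe a NEBNext Ultra kit and the labels a SMARTER kit. Library totals were 15039566 to 20504338, and intervals of read ratios cover counting error only. Standard errors were derived from edgeR's test, as the absolute log2 fold change over the square root of its F statistic. Intervals of log2 differences come from these standard errors. All 8 libraries were fitted together in R 4.3.3 with edgeR 4.0.16 (TMM, filterByExpr, quasi-likelihood test, group as the only term), and Benjamini-Hochberg adjusted p under 0.05 was called. The biological coefficient of variation was 10.95%. The filter kept genes over 0.572 CPM in at least 2 libraries. DESeq2 1.42.0 was an alternative. The fit was tested on simulated data. CPM and RPKM used TMM library sizes and the exon lengths of GENCODE M21, in which 50354 of 50578 genes (99.6%) were found.

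The members and gene lists were chosen with earlier results of these data known. Named members were those called in at least 1 of 6 comparisons, without overlap between libraries and with at least 1 CPM in the higher group, limited to the 16 smallest p, and the highest RPKM per role in MEFs. In each pathway list, the 2 genes with the smallest p in each comparison with MEFs were named. Other members (Wnt9a, Wnt2, Wnt11, Wnt4, Fzd10, Fzd8, Ror1, Sfrp4, Dkk1 and those not tested) were described after their values were seen. No replicate pair was the same library, since each differed beyond sampling noise. Replicate numbers were not used as pairs. Alternatives were RLE size factors, DESeq2, other filters, a replicate block, each library left out and a fit restricted to the groups compared. Where a group was left with 1 library, it was taken to vary like the other groups.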

Additional observations from a re-analysis of the deposited data

How the results depend on the processing

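No called value of the members named by rule changed direction under any alternative. With the compared groups fitted alone, CHIR-99021 against LY-364947 gave 11 calls among the members in place of 7, and CHIR-99021 against carbidopa 4 in place of 12. Without a filter on low counts, LY-364947 against carbidopa gave 1 call (Wnt2b) in place of 0. With 1 library left out, the calls ranged from 16 to 25 for carbidopa against MEF, 15 to 24 for LY-364947 against MEF, 17 to 22 for CHIR-99021 against MEF, 2 to 14 for CHIR-99021 against LY-364947, 2 to 14 for CHIR-99021 against carbidopa and 0 to 6 for LY-364947 against carbidopa. The cause was not tested. DESeq2 gave 18, 17, 17, 7, 11 and 0 calls in the same order. RLE size factors moved the median over all genes by under 0.04 on the log2 scale.

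Deviations of libraries with the same replicate number gave correlations of either sign, from -0.218 to 0.191. Whether the numbers pair the samples is not given, and such correlations cannot exclude it. With a replicate block, the calls were 20, 18 and 18 for the 3 comparisons with MEF, 7 for CHIR-99021 against LY-364947, 10 for CHIR-99021 against carbidopa and 0 for LY-364947 against carbidopa. Of 114 values of named members, 112 stayed on their side of the threshold with the block, and Frzb for CHIR-99021 against carbidopa (adjusted p = 0.0539) and Lrp5 for LY-364947 against MEF (0.066) did not. With 2 libraries per group and no known pairing, small changes and genes under about 10 reads could not be resolved.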
